A study of Mus musculus with 6 samples.

Results

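The tripartite motif (Trim) family was followed across macrophages labelled Txn1 KO and wild-type macrophages. Its members were all rows of the deposited differential expression table whose gene name is Trim and a number, with Trim34b and pseudogene names left out. That gave 41 of the 14005 listed genes, and all 41 entered the test. A further 26 protein-coding Trim genes of the annotation, among them Trim10, Trim31, Trim38 and Trim58, were not analysed here. The study sequenced polyA-selected RNA of bone marrow-derived macrophages, primary cells grown from mouse bone marrow, to learn how loss of thioredoxin-1 affects NLRP1 inflammasome genes. The Txn1 KO group had 3 libraries that combine the Txn1tm1.1Ees/J allele with B6.129P2-Lyz2tm1(cre)lfo/J, and the WT group had 3 libraries of wild-type cells. Both groups are labelled C57BL/6J in strain background and as pooled from male and female mice, and no age or treatment is given. In the Txn1 KO line, Cre recombinase sits in Lyz2, the lysozyme gene of myeloid cells, so recombination is restricted to cells that express Lyz2 and the knock-in interrupts Lyz2 itself. The B6.129P2 in its name records that the Cre allele was made in cells of a 129 strain and then bred onto C57BL/6.

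Trim proteins are named for a shared order of domains, a RING finger that transfers ubiquitin, B-box zinc fingers and a coiled coil, followed by a C-terminal domain that differs between subfamilies and picks the target. Many with a C-terminal PRY-SPRY domain act in antiviral defence, as sensors of viral capsids or as ubiquitin ligases on the RIG-I, NF-kB and interferon pathways. Several are themselves interferon-stimulated genes, and mice carry a cluster of Trim5, Trim12, Trim30 and Trim34 genes that expanded by duplication in rodents.

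Libraries held 22508616 to 31127228 reads in listed genes in Txn1 KO and 29716640 to 38726953 in WT. Txn1 itself did not pass the test, at 12349 ± 367 normalized counts (reads divided by a size factor per library) in Txn1 KO and 12580 ± 532 in WT (SD, n = 3 each; limma adjusted p = 0.686). Which part of Txn1 the allele removes is not given, and only gene-level counts were examined, so loss of Txn1 in these libraries was not shown here. Lyz2, interrupted by the Cre, was at 3118 ± 1281 in Txn1 KO and 364408 ± 3550 in WT. All 7 macrophage markers were present, with Fcgr1, Cd14 and Cd68 lower and Mertk and Itgam higher. No erythroid marker of 7 was listed, 4 of 6 neutrophil markers were (S100a9 lower) and 1 of 6 lymphocyte markers. Txn1 KO replicate 3 and WT replicate 1 carried liver transcripts, with summed Alb, Fgb and Ttr of 771 and 840, against 0 to 1.68 in the other 4 libraries. Stromal markers moved with the groups. Of 6, 5 were lower, none was at 0, and their sums were 896 to 1501 in Txn1 KO and 1950 to 2175 in WT. Their part in the Trim changes was not tested. In bulk RNA, fewer cells of a type and less RNA per cell cannot be told apart. Nothing in the labels says that the libraries came from separate animals or cultures, so each p-value reflects variation among these 6 libraries, part of which may be technical.

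The family held 10 members that were lower and 2 that were higher in Txn1 KO macrophages, and 7 of the 10 lie in the chromosome 7 cluster. Trim12a, Trim30c, Trim34a and Trim30d stood at 53.4% to 58.1% of their WT means, and Trim5 and Trim21 at 66.6% and 67.5%. The other 4 lower members, Trim25, Trim26, Trim30a and Trim12c, stood at 84.1% to 89.8% of WT. Trim36 and Trim23 were about 120% of WT (119.6% and 120.5%). Calls were made at a Benjamini-Hochberg adjusted p under 0.05 over all tested genes with limma, two-sided, on log2(normalized count + 1). By that rule 9.97% of all tested genes were lower and 11.5% higher, 21.5% together. The median log2 change was -0.11 over the 41 members and -0.005 over all tested genes. Without regard to the test, all 3 Txn1 KO libraries lay below all 3 WT libraries in 19 members and above them in 4, against 17.6% and 18.5% of all tested genes. The authors' deposited table called the same 12 members in the same directions, beside 8.87% of its genes lower and 10.4% higher. Without the 2 libraries with liver transcripts, the 10 lower members kept their calls. Trim23 and Trim36 lost theirs, at log2 changes of 0.20 each, against 0.27 and 0.26 with all 6 libraries (limma adjusted p = 0.116 and 0.112 with the 4).

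**Figure D1:**
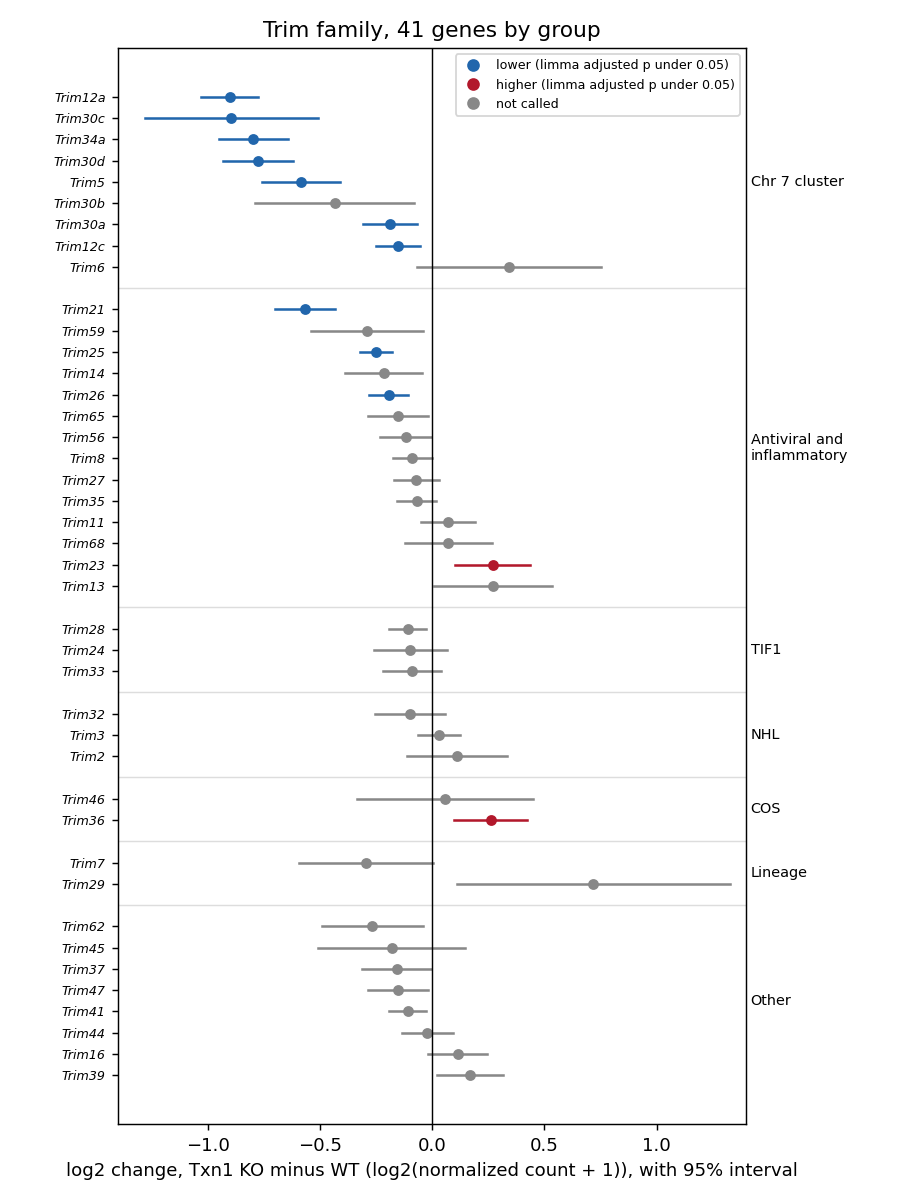
Log2 change of each of the 41 Trim genes, Txn1 KO minus WT (x axis, on log2(normalized count + 1)), with its 95% interval, grouped by role down the page. Blue points are lower and red points higher at a limma adjusted p under 0.05. The lower genes gather in the chromosome 7 cluster, from -0.90 for Trim12a to -0.15 for Trim12c.

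Promoter sequence is shown because most of the lower members share a short element there. The interferon-stimulated response element, bound by interferon regulatory factors and by the STAT complex ISGF3, was searched as its core, GAAA, any 2 bases and GAAA, on both strands in the window from 250 bases before to 50 after each RefSeq start site (GRCm38.p6). The table gave a window for 31 of the 41 members. A match was present in 8 of the 10 lower members, in 0 of 1 higher member with a window (Trim23), and in 1 of 20 members that were not called (Trim2). Over all 27025 genes with a window the share was 3.99%, and over all 1099 called lower it was 7.83%. Trim30c and Trim25 were the 2 lower members without a match. The antioxidant response element core TGACNNNGC, bound by NRF2, was in 0 of the 10 lower members. It was in 4 of 20 members not called (Trim59, Trim2, Trim30b and Trim7) and in 14.0% of all windows. Over all 1099 genes called lower its share was 15.9%, and over all tested genes with a window 17.3%. Whether 0 of 10 differs from these shares was not tested. A match or its lack describes letters in a window and not binding.

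The stretches printed next run 5′ to 3′ on each gene's own strand, with matches of the interferon element's core or its reverse complement in capitals. They cover 70 bases before to 30 after the RefSeq start, save for Trim26, where the stretch lies farther upstream to show its match. On the minus strand of chromosome 7 these are Trim12a at chr7:104315466-104315565, Trim5 at chr7:104288077-104288176, Trim12c at chr7:104353320-104353419, Trim30a at chr7:104465164-104465263, Trim30d at chr7:104507820-104507919, Trim21 at chr7:102565453-102565552 and Trim30c at chr7:104400749-104400848. On the plus strand are Trim34a at chr7:104244387-104244486, Trim26 at chr17:36836976-36837075 and Trim25 at chr11:88999333-88999432. The last lines, Trim30c and Trim25, hold no match and are given for contrast.
Trim12a: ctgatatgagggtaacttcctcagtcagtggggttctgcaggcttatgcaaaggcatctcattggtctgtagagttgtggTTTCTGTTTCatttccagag
Trim5: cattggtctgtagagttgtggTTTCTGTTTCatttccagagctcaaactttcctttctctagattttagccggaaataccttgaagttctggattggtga
Trim12c: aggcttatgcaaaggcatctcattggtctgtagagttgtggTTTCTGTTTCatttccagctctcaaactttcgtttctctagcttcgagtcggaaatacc
Trim34a: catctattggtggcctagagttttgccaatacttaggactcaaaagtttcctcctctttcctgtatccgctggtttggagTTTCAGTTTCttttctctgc
Trim30a: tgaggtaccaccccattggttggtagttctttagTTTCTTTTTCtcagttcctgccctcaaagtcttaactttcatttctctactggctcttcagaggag
Trim30d: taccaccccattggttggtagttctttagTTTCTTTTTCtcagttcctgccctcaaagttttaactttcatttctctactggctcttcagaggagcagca
Trim21: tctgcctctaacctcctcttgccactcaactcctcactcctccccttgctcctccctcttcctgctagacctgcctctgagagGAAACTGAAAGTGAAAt
Trim26: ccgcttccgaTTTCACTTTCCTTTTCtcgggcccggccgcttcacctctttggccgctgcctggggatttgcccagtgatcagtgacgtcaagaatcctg
Trim30c: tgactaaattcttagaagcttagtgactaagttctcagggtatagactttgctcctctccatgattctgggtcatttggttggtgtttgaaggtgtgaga
Trim25: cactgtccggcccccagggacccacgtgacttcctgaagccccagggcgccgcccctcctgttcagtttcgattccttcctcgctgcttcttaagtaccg

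Within 2 sets of cluster genes the promoters are copies of each other, so matches inside a set are not separate occurrences of the element. Trim12a and Trim12c share an unbroken run of 59 bases that holds the match, Trim12a and Trim5 share 41, Trim5 and Trim12c share 39, and Trim30a and Trim30d share 59. No such run joins the 2 sets, and the match of Trim34a lies in neither. Trim12c and Trim30a carry the same element in the same run as Trim12a and Trim30d, yet their log2 changes were -0.15 and -0.19 against -0.90 and -0.78; a test between genes was not made. Trim21 lies outside the cluster, and its promoter holds GAAACTGAAAGTGAAA, in which 2 matches overlap.

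All 9 annotated genes fixed as the chromosome 7 cluster were listed, and 7 were lower, 0 higher, with a median log2 change of -0.59. Of all tested genes, 9.97% were lower and 11.5% higher. The 9 genes span chr7:104218793-104507849 (GRCm38). Trim34b lies in the same span, is left out by the rule and was higher (log2 3.56, limma adjusted p = 5.30e-09). Trim12a, Trim5 and Trim12c are the mouse relatives of primate TRIM5, which binds incoming retroviral capsids. Trim12a had 561, 565 and 606 normalized counts in Txn1 KO replicates 1 to 3, against 1106, 1113 and 1022 in WT replicates 1 to 3. The groups did not overlap, and the highest Txn1 KO library was well under the lowest WT library. On the log2 scale this was -0.90 ± 0.061 (SE; limma adjusted p = 7.68e-09). Trim5 had 311, 280.4 and 295 normalized counts in Txn1 KO and 469.7, 431 and 429 in WT, again without overlap (log2 -0.59 ± 0.082, SE; limma adjusted p = 4.90e-05). Trim12c moved least of the 3. It had 1874, 1843 and 1883 in Txn1 KO and 1975, 2059 and 2202 in WT, and although the groups did not overlap the log2 change was -0.15 ± 0.047 (SE; limma adjusted p = 0.0253). The call on Trim12c was lost without Txn1 KO replicate 1 or 2, or WT replicate 2 or 3 (adjusted p 0.0542 to 0.164).

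Trim34a, whose human counterpart TRIM34 acts with TRIM5 on retroviral capsids, was also lower. Its counts were 678, 804 and 679.6 in Txn1 KO and 1167, 1365 and 1223 in WT. The highest Txn1 KO library was below the lowest WT library, and the log2 change was -0.80 ± 0.073 (SE; limma adjusted p = 3.72e-07). Of the 50-base stretches of Trim34a exons, 39.8% also occur in Trim34b, a near copy inside the cluster that the rule leaves out, so reads may be assigned to either. Trim34b itself was higher, with 149.5, 153 and 146.7 normalized counts in Txn1 KO against 9.17, 14.0 and 12.6 in WT (log2 3.56, limma adjusted p = 5.30e-09). The sum of both genes was 828, 957 and 826 in Txn1 KO and 1176, 1379 and 1236 in WT, so it remained lower (log2 -0.54 ± 0.069, SE; limma adjusted p = 1.91e-05). That sum was added after the data were seen.

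The Trim30 genes are specific to rodents, and Trim30a, the best known of them, restrains Toll-like receptor signalling to NF-kB in mouse macrophages. Trim30d had 788, 750.2 and 721 normalized counts in Txn1 KO and 1118, 1362 and 1411 in WT. The groups did not overlap (log2 -0.78 ± 0.074, SE; limma adjusted p = 6.48e-07). Trim30c, the lowest per kb of exon among the called genes, had 83.5, 59.3 and 57.9 in Txn1 KO and 139.6, 103 and 131 in WT, without overlap (log2 -0.90 ± 0.18, SE; limma adjusted p = 0.00168). Trim30a had 4263, 4127 and 3608 in Txn1 KO and 4220.4, 4701 and 4742 in WT. Here Txn1 KO replicate 1 lay above WT replicate 1, so the groups overlapped, and Trim30a was the 1 lower member of which this was true (log2 -0.19 ± 0.056, SE; limma adjusted p = 0.0232). Its call was lost without Txn1 KO replicate 3 or without WT replicate 2 or 3 (adjusted p 0.0850 to 0.131). Trim30b was not called at a log2 change of -0.43 (limma adjusted p = 0.0780). Trim6, whose human counterpart makes free ubiquitin chains for the kinase IKK-epsilon, was not called at 0.34 (limma adjusted p = 0.241).

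**Figure D2:**
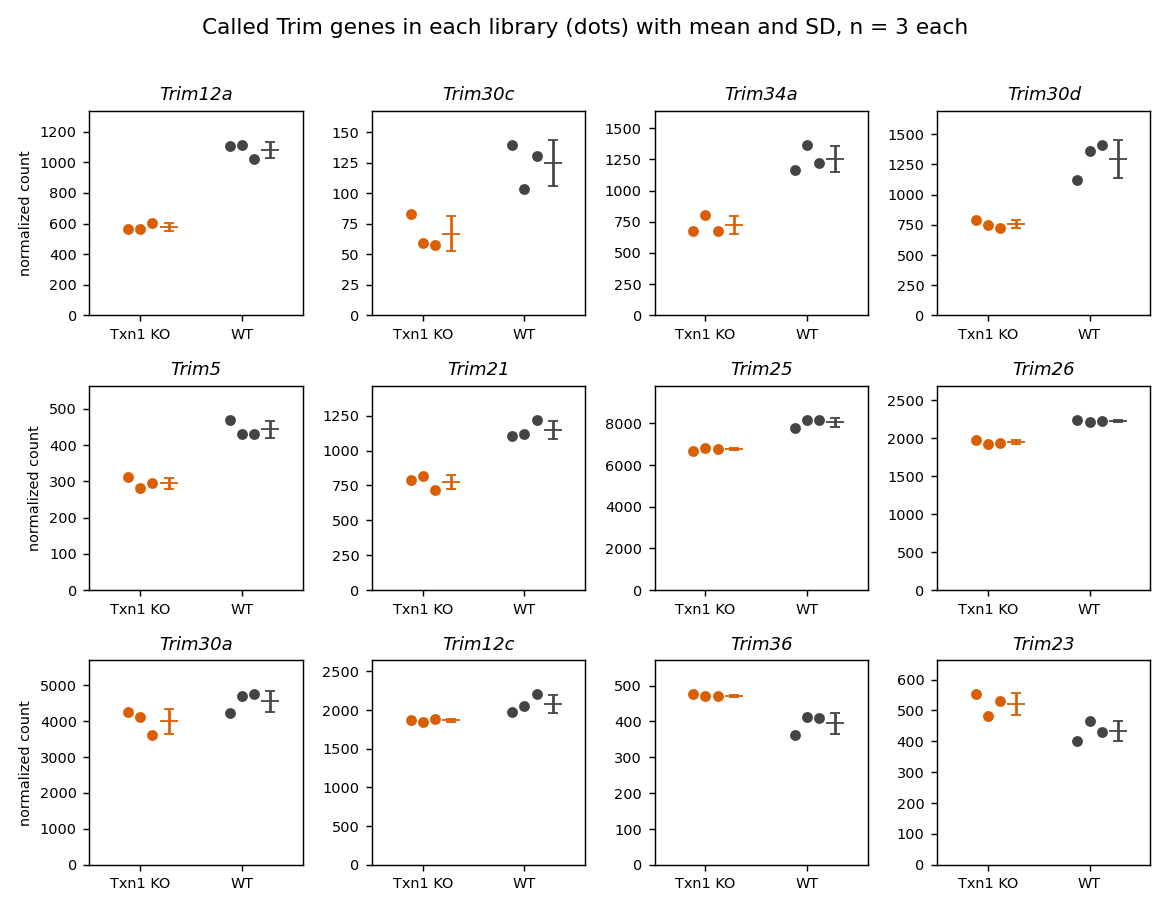
Normalized counts of the called Trim genes in each library, Txn1 KO left of WT in each panel; points are libraries and bars the mean with its SD. Trim12a averaged 577 in Txn1 KO and 1080.1 in WT, while in Trim30a the groups overlap.

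Close copies limit how far the cluster's members can be told apart. Trim34a shares most, with 59.7% of its 50-base stretches found in other genes on either strand. Trim34b holds 39.8%, and 20.2% occur in Gm47248, an antisense gene that overlaps Trim34a on the opposite strand. Trim5 shares 36.6%, mostly with Trim12c (23.5%), and Trim12c shares 33.7%, whereas Trim12a shares 10.5% and Trim30d 7.49%. The summed counts of Trim5, Trim12a and Trim12c were 2746, 2688 and 2783 in Txn1 KO and 3549.9, 3603 and 3653 in WT (log2 -0.40 ± 0.037, SE; limma adjusted p = 5.81e-07). For Trim30a and Trim30d summed, the log2 difference was -0.30 ± 0.057 (SE; limma adjusted p = 0.000860). These sums were also added after the data were seen.

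Genes in and around the cluster changed in both directions, and the part of position in this was not tested. In the span of the cluster, 12 genes were tested, of which 7 were lower and 1, Trim34b, was higher; the remaining 4 were Trim6, Trim30b, Gm15133 and Gm16464. Shares over all tested genes were 9.97% lower and 11.5% higher. Of 23 genes outside the family within 2 Mb on either side, 5 were lower and 1 was higher. Their median log2 change was -0.07. The lower genes were Gvin1, a large interferon-inducible GTPase (-1.42), the loci Gm8995 (-0.61) and Gm4070 (-0.41), Ilk, which encodes integrin-linked kinase (-0.39), and Pgap2, a gene of GPI-anchor maturation (-0.20), and the higher one was the pseudogene 9130208D14Rik (1.03). Chromosome 7 held 13 of the 41 members, 8 of them lower. Txn1 lies on chromosome 4, where Trim32, Trim14 and Trim62 lie 7.65, 11.4 and 70.9 Mb from it, and none of these passed the test. No member lies on chromosome 10, which carries Lyz2.

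**Figure D3:**
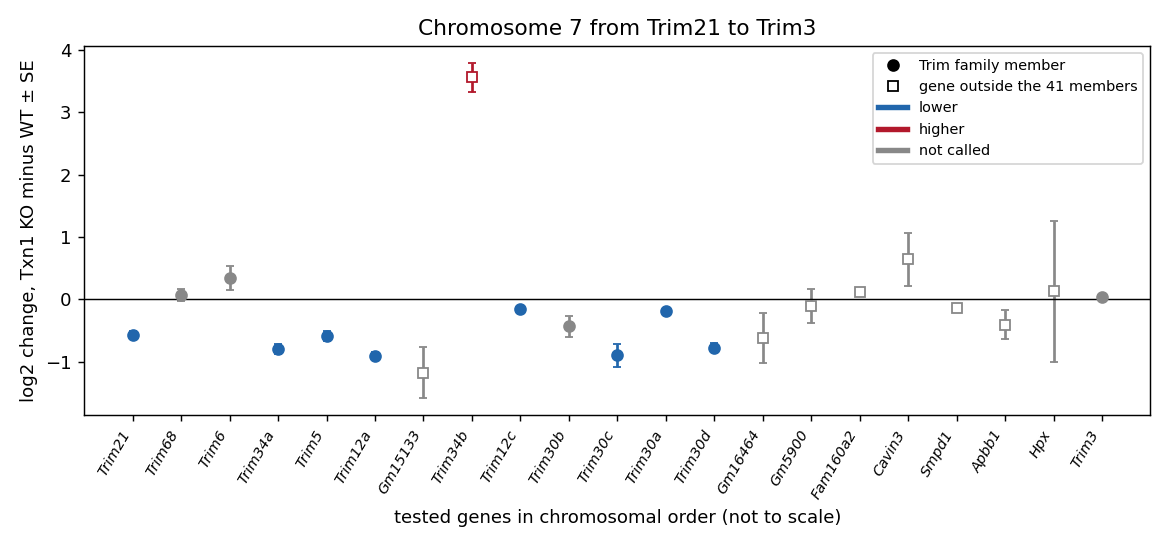
Log2 change, Txn1 KO minus WT, of the tested genes from Trim21 to Trim3, in order along the chromosome and not to scale; filled points are members, open squares other genes, and bars the SE. Most Trim genes of the cluster lie below 0 and Trim34b, which is outside the 41 members, lies at 3.56.

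Antiviral and inflammatory signalling genes outside the cluster gave 3 lower and 1 higher of 14 listed, with a median log2 change of -0.10. That is 21.4% lower and 7.14% higher, against 9.97% and 11.5% of all tested genes. Whether the group differs from all tested genes was not tested. Trim21 is the cytosolic receptor for antibody Fc that sends antibody-coated virus to the proteasome. It had 786, 821 and 717 normalized counts in Txn1 KO and 1102, 1122 and 1221 in WT, without overlap, and fell by 0.57 ± 0.063 on the log2 scale (SE; limma adjusted p = 3.56e-06). Trim25, the ubiquitin ligase that activates the RNA sensor RIG-I, had 6703, 6814 and 6796 in Txn1 KO and 7798, 8179.7 and 8174 in WT. Its Txn1 KO libraries lay close together and all below WT, and the log2 change was -0.25 ± 0.034 (SE; limma adjusted p = 3.40e-05). Trim26, a ligase with roles in induction of interferon, had 1976.5, 1927 and 1939 in Txn1 KO and 2246, 2211 and 2229 in WT, without overlap (log2 -0.19 ± 0.040, SE; limma adjusted p = 0.00196). Trim23, a ligase that also carries an ARF GTPase domain and modifies the NF-kB regulator NEMO, was the 1 higher gene of the group. It had 552, 482 and 530.2 in Txn1 KO and 401, 467 and 429 in WT, without overlap (log2 0.27 ± 0.080, SE; limma adjusted p = 0.0221). The call on Trim23 was lost without Txn1 KO replicate 1 or WT replicate 1 or 3 (adjusted p 0.0755 to 0.0985).

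The other 10 of this group were not called. Trim14, a RING-less adaptor of the mitochondrial antiviral protein MAVS, had a log2 change of -0.22 (limma adjusted p = 0.0674). Of its 50-base stretches, 29.5% also occur in Nans, which overlaps it on the opposite strand. Trim59 had -0.29 (limma adjusted p = 0.0947). Trim65, an activator of the RNA sensor MDA5, had -0.15, Trim56, an RNA-binding antiviral ligase, -0.12, and Trim8, a regulator of NF-kB and SOCS1, -0.09. Trim35, a regulator of IRF7, had -0.07, as did Trim27, while Trim11 and Trim68 had 0.07 each and Trim13, an ER-anchored ligase, 0.27 (limma adjusted p = 0.139).

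Transcriptional co-regulators of the TIF1 subfamily, which bind chromatin through a PHD finger and bromodomain, gave 0 calls of 3. Trim28, the co-repressor that KRAB zinc finger proteins recruit to silence retroelements, was nearest to the threshold. It had 3393, 3504 and 3336 normalized counts in Txn1 KO and 3693, 3579 and 3772 in WT, without overlap (log2 -0.11 ± 0.038, SE; limma adjusted p = 0.0511). Trim28 passed at a pseudocount of 4 (adjusted p = 0.0498), with a minimum mean of 50 (0.0427) and without WT replicate 2 (0.0460), each by limma. Trim24, a co-regulator of nuclear receptors, and Trim33, a ligase for SMAD4, had log2 changes of -0.10 and -0.09. Of 8 partners of Trim28 in silencing, 1 was lower, the NuRD helicase gene Chd3 (-0.22 ± 0.040, SE; limma adjusted p = 0.000730), and 0 were higher, with a median of -0.008.

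The NHL-repeat genes Trim2, Trim3 and Trim32, known from neurons and muscle, gave 0 calls of 3, with log2 changes of 0.11, 0.03 and -0.10. Among the COS-box genes, whose products bind microtubules, Trim36 had 475, 472 and 469.7 normalized counts in Txn1 KO and 362, 413 and 409 in WT. The groups did not overlap, and the Txn1 KO libraries had a coefficient of variation of 0.600% (log2 0.26 ± 0.077, SE; limma adjusted p = 0.0218). That call was lost without Txn1 KO replicate 1 or 2 or WT replicate 1 (adjusted p 0.0566 to 0.101). Trim46, known from the axon initial segment, had a log2 change of 0.06 and was not called.

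Trim29, known from epithelia and alveolar macrophages, was the lowest of the family per kb of exon and had the largest upward estimate. It had 32.5, 31.6 and 35.0 normalized counts in Txn1 KO and 22.4, 20.2 and 16.8 in WT, without overlap, and did not pass (log2 0.72 ± 0.29, SE; limma adjusted p = 0.0905). Trim7, a ligase found through its binding to glycogenin, had a log2 change of -0.29 and did not pass. The 8 remaining members, Trim16, Trim37, Trim39, Trim41, Trim44, Trim45, Trim47 and Trim62, gave 0 calls, with log2 changes from -0.27 for Trim62 to 0.17 for Trim39. Trim41 was just outside at -0.11 ± 0.040 (SE; limma adjusted p = 0.0596) and passed with edgeR on recovered reads (adjusted p = 0.0465), a test that called 9.94% of all genes lower and 11.3% higher. Over all 29 members not called, the log2 changes ran from -0.43 to 0.72, and 14 had an unadjusted limma p under 0.05, of which 11 were lower and 3 higher. That is 48.3% of them, against 13.8% of the 10976 tested genes that were not called, of which 821 were lower and 691 higher. Over the 29 members, the median half-width of the 95% intervals, which are not adjusted for the number of genes, was 0.154. Calls used adjusted p, so changes of that size or smaller, and some larger ones, were often not detectable with 3 libraries a group.

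Levels between members were compared as normalized counts per kb of annotated exon. Trim25 was highest, at 1177 ± 10.4 in Txn1 KO and 1399 ± 38.0 in WT (SD, n = 3 each). Trim30a followed, at 973 ± 84.0 in Txn1 KO and 1108 ± 70.5 in WT, and then Trim35, at 922 ± 40.7 in Txn1 KO and 968 ± 28.6 in WT, which had 4418, 4310 and 4052 normalized counts in Txn1 KO and 4515, 4319 and 4570 in WT. The SD ranges of Trim30a and Trim35 overlap in Txn1 KO, so those neighbours cannot be ordered there. Trim8, Trim28 and Trim41 came next, at 847, 820.4 and 611 per kb in Txn1 KO and 900.4, 885 and 659.5 in WT, and the SD ranges of Trim8 and Trim28 overlap in both groups. At the other end, Trim29 stood at 9.50 ± 0.510 in Txn1 KO and 5.70 ± 0.819 in WT. In Txn1 KO Trim30b was within its SD of that, at 9.65 ± 1.14, against 13.1 ± 1.31 in WT. Trim6 stood at 15.6 ± 2.89 in Txn1 KO and 12.2 ± 1.02 in WT. Summed over all members, the family had 46387 ± 712 normalized counts in Txn1 KO and 52026 ± 1177 in WT (SD, n = 3 each).

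**Figure D4:**
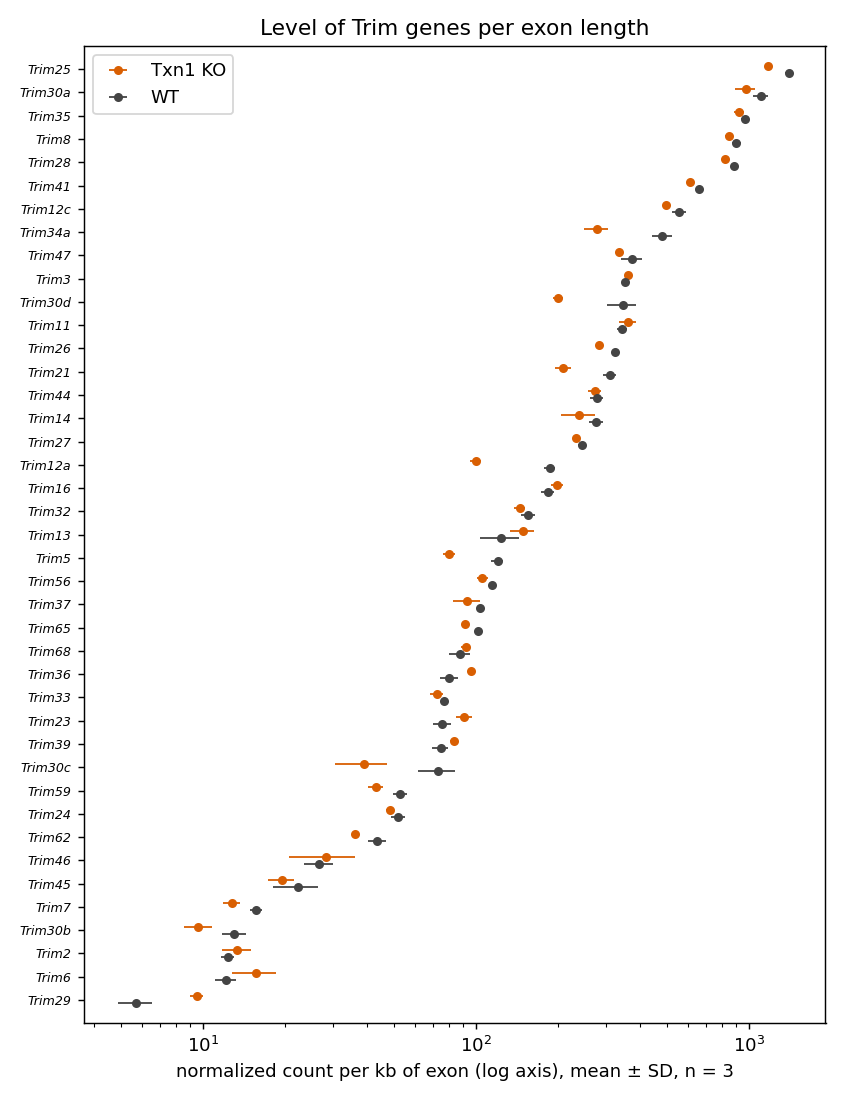
Level of each Trim gene per kb of exon (x axis, log scale, normalized counts per kb), Txn1 KO and WT, points being means and bars the SD of 3 libraries. Trim25 and Trim30a have the highest means in both groups, and Trim29 the lowest.

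Relatives of the family under other names did not move one way. Mefv, which encodes pyrin, the inflammasome sensor of RhoA inactivation, had 271, 281 and 346 normalized counts in Txn1 KO and 117, 151 and 133 in WT, which made a log2 difference of 1.16 ± 0.13 (SE; limma adjusted p = 3.06e-06). Mid1, a microtubule-bound ligase, averaged 79.1 ± 8.85 in Txn1 KO and 207 ± 13.1 in WT (SD, n = 3 each), a log2 difference of -1.38 ± 0.14 (SE; limma adjusted p = 1.00e-06). Neither gene's groups overlapped. Pml, the organizer of nuclear bodies, had a log2 change of 0.06 and was not called (limma adjusted p = 0.572).

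The RIG-I pathway on which Trim25 acts had 5 lower and 1 higher of 11 genes and a median log2 change of -0.11. That is 45.5% lower and 9.09% higher, against 9.97% and 11.5% of all tested genes. Irf7, the transcription factor of the type I interferon loop, averaged 5746 ± 397 normalized counts in Txn1 KO and 8855 ± 339 in WT (SD, n = 3 each; log2 -0.63, limma adjusted p = 2.07e-08). The RNA sensor genes Ifih1 (MDA5), Dhx58 (LGP2) and Ddx58 (RIG-I) had log2 changes of -0.37, -0.29 and -0.25, and Zc3hav1, a zinc finger antiviral protein, -0.13. Tbk1, the kinase that phosphorylates IRF3, was higher at 0.13 (limma adjusted p = 0.0463), with overlapping groups. The call on Tbk1 was lost without Txn1 KO replicate 2 or 3 or WT replicate 1 or 2 (limma adjusted p 0.123 to 0.155), without both libraries with liver transcripts (0.246) and with edgeR (0.0515 and 0.0555). That on Zc3hav1 was lost without Txn1 KO replicate 1 or WT replicate 2 or 3 (limma adjusted p 0.0553 to 0.123), and that on Ddx58 without WT replicate 3 (limma adjusted p = 0.0653). Mavs, Irf3, Ikbke, Traf3 and Rnf135 were not called.

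The interferon-stimulated genes used as a yardstick had 11 of 12 lower, against 9.97% of all tested genes. The median log2 change of the 12 was -0.76. It was -0.59 in the 9 members of the chromosome 7 cluster, which leave out Trim34b. The 4 with the smallest p were Ifit1 (-0.95), Mx1 (-1.16), Ifit3 (-0.89) and Ifit2 (-0.997); Irf9 was not called. The order of the libraries within each group was counted in both sets. Txn1 KO replicate 3 was lowest of its group in 12 of the 12 interferon-stimulated genes and in 4 of 9 cluster genes. WT replicate 1 was lowest of its group in 11 of the 12 and in 4 of 9 cluster genes. Of the cluster genes, only Trim30a and Trim30d were lowest in both of these libraries. Over all 41 members, Txn1 KO replicate 3 was lowest of its group in 18 and WT replicate 1 in 21. With 3 libraries a group in random order, each would be lowest in about 1 of 3 genes. Whether 4 of 9 differs from that was not tested. Txn1 KO replicate 3 and WT replicate 1 are also the 2 libraries with liver transcripts, whose part in the order was not tested. The summed interferon-stimulated genes were 41913, 43631 and 33934 in Txn1 KO and 53075, 66012 and 67299 in WT, whereas the cluster's sums were 8699, 8586 and 7999 in Txn1 KO and 10356, 11286 and 11319 in WT. Both sums separated the groups, and the interferon sums spread more within a group. Trim30a, whose groups overlap, was the largest part of the cluster's sum, with means of 3999 in Txn1 KO and 4554 in WT. Without Trim30a the cluster's sums were 4436, 4459 and 4391 in Txn1 KO and 6136, 6585 and 6578 in WT.

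**Figure D5:**
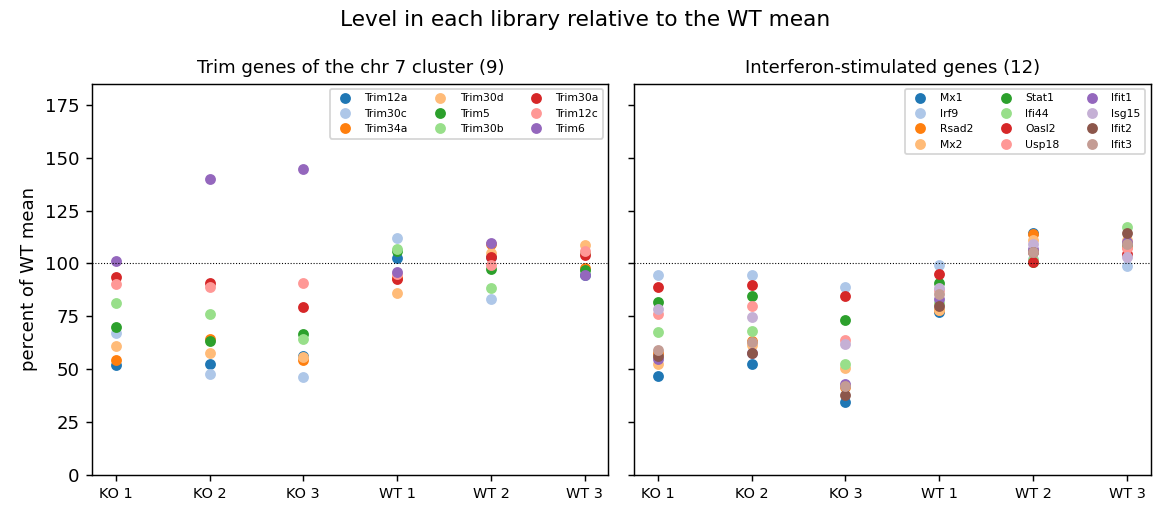
Level in each library as a percent of the WT mean (y axis), for the 9 cluster genes on the left and the 12 interferon-stimulated genes on the right; each point is 1 gene in 1 library. Txn1 KO replicate 3 is lowest for 12 of the 12 interferon-stimulated genes and for 4 of 9 cluster genes. Among 3 libraries in random order, each would be lowest for about 1 of 3 genes.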

How the data were processed

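RNA from 6 samples was polyA-selected and made into libraries with ERCC spike-ins and the NEBNext Ultra II kit, per the labels' protocols. The submitters' processing notes name STAR 2.5.2b, bcl2fastq 2.20, DESeq2 and Trimmomatic 0.36, and the build GRCm38 (mm10). The sources used here do not give the counter, its annotation or its use of strand. The deposited signal of each gene and library is the authors' read count divided by a size factor, as seen from steps of 0.777 to 1.35 normalized counts per read; 100% of values were whole reads at a tolerance of 0.01. The deposited log2 fold changes and p-values, with Benjamini-Hochberg adjustment over 13985 genes, are the authors' own. A floor of 3 reads equals 2.33 to 4.04 normalized counts and, with no molecular identifiers, covers counting error only.

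Because the values are normalized, limma 3.58.1 (R 4.3.3) was fitted to log2(normalized count + 1), its prior following the trend in the mean, for 13977 genes with a mean of at least 10, leaving out 28; this scale understates changes of low genes. The Txn1 KO columns were matched by name, and the columns named BMDM were taken as the WT samples, the only other group. Within a group, pairs of libraries differed beyond sampling noise (a chi-square of 6.14 to 29.6 for each degree of freedom). Positions and exon lengths are from GENCODE M21 and promoters from RefSeq. Shared 50-base stretches were counted between exons of annotated genes on either strand, so genes that overlap on opposite strands share them too.

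The members, role groups, gene lists and motifs were chosen with earlier results of these data known. Per-library values are given for called members with an absolute log2 change of at least 0.5, the 3 called members of smallest p in each role group, the 3 highest levels per kb and a few members chosen after their values were seen (Trim12c, Trim23, Trim28 and Trim29). Of other lists, called genes are named, or the 4 of smallest p where over 6 were called. Alternatives were other pseudocounts, filters and thresholds, edgeR 4.0.16 and DESeq2 1.42.0 on recovered reads, leaving out libraries and a replicate block. The scripts were tested on simulated data. Identity between proteins was planned and is not reported here.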

Additional observations from a re-analysis of the deposited data

How the results depend on the processing

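Trim12a, Trim5, Trim34a, Trim30c, Trim30d, Trim21, Trim25 and Trim26 were called in all 17 settings. Over the leave-one-out fits the count of called members ran from 9 to 13, the count lower from 8 to 10, the count higher from 0 to 3, the median log2 change from -0.143 to -0.0942 and the count over all genes from 2087 to 2816. The count higher was 0 at an adjusted p under 0.01 and 0 without both libraries with liver transcripts, where the median was -0.13. With the chromosome 7 cluster left out, a choice made after seeing the data, 5 members were called, 3 of them lower, with a median of -0.0935. Of those 32 members, 9.38% were lower and 6.25% higher, against 9.97% and 11.5% of all tested genes. Called partners of Trim28 numbered 1 to 2 over the leave-one-out fits and 3 without both libraries with liver transcripts. Among members not called, the sign turned for Trim44 (leave-one-out -0.067 to 0.011), Trim46 (-0.14 to 0.24) and Trim68 (-0.0022 to 0.12, and -0.0139 without both libraries); the cause was not tested. Calls were gained by Trim14 without Txn1 KO replicate 2 (limma adjusted p = 0.0180), Trim37 without Txn1 KO replicate 1 (0.0178), and Trim13 (0.0438) and Trim47 (0.0188) without WT replicate 2.

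With the replicate number as a replicate block, 2675 genes were called, of which 12 were members, the same 12 as without it. Deviations of libraries with the same number from their group means correlated at -0.268, 0.137 and -0.328. The highest correlation between groups, 0.432, was of Txn1 KO replicate 3 with WT replicate 1, the libraries with liver transcripts. With 3 libraries a group, these values cannot tell whether libraries of the same number were prepared together. Depth limits Trim29 most, which had as few as 20 reads in a library.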
